A study of Lathyrus oleraceus with 4 samples.

Results

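The transcriptomes of young seeds were compared between the grain pea cultivar Zhongwan 6 and the vegetable pea cultivar Zhewan 1 at 10 days after pollination (DAP). The comparison covers every assembled sequence, called a unigene, with at least 50 reads in one of the 2 libraries, and 31505 of the 77269 unigenes (40.8%) met this rule. The series holds 4 RNA-Seq libraries of field-grown pea seed, 1 for each cultivar at 10 and at 25 DAP, and the 25 DAP libraries serve here only to follow the unigenes that differed at 10 DAP. Neither cultivar carried a transgene or received a treatment in the labels. Each sample combined seeds of many plants, and the study describes 3 biological replicates, but the text does not state how these entered the libraries. With 1 library a side, no difference below has a replicate check, and every Fisher's exact test and interval compares 2 libraries and covers counting error only. A read can be counted on more than 1 sequence, so counted reads are not all independent and the tests and intervals can be too narrow.

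A pea seed at 10 DAP is young: the embryo is still dividing and taking shape, while the bulk of starch and storage protein is laid down later, when the cotyledon cells expand and fill. A vegetable pea is picked while its seeds are immature and sweet, whereas a grain pea is left to fill and dry. Starch is made in the plastid from ADP-glucose, which chain-building synthases and branching enzymes turn into amylose and amylopectin. Maturation genes are switched on by a small network of regulators that includes FUS3, a B3-domain transcription factor best studied in Arabidopsis.

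At 10 DAP the counted reads came to 60861344 in Zhongwan 6 and to 50086351 in Zhewan 1. The selected unigenes held 99.4% and 99.6% of these reads. They fell into 18893 Trinity components, which are groups of sequences assembled from overlapping reads, and 12866 (40.8%) were the only sequence of their component. Their median length was 1444 bp, against 317 bp for the unigenes below the read minimum. Of the selected unigenes 26828 had 50 or more reads in both libraries, 3991 only in Zhongwan 6 and 686 only in Zhewan 1. At the limit itself 139 unigenes with exactly 50 reads in the higher library had a median log2 ratio of 0.50, and the 136 unigenes with 49 reads just outside had a median of 0.69. All log2 ratios are of Zhongwan 6 to Zhewan 1, from RPKM (reads per kilobase of unigene, scaled to the counted total of the library), with 3 or fewer reads in a library set to 3.

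The libraries grouped by stage and not by cultivar. Across the 22135 unigenes that reached an RPKM of 1 in each library, Pearson's r of log2 RPKM was 0.904 between the cultivars at 10 DAP. The Zhewan 1 library at 10 DAP correlated at 0.826 with Zhongwan 6 at 25 DAP and at 0.677 with Zhewan 1 at 25 DAP. The Zhongwan 6 library at 10 DAP correlated at 0.767 with Zhongwan 6 at 25 DAP and at 0.683 with Zhewan 1 at 25 DAP. Both 10 DAP libraries were thus nearer to Zhongwan 6 at 25 DAP. These unigenes share library totals and are not independent, so the values are a description. With 50 or more reads in both libraries of a pair and 3 or fewer in each of the others, 1 unigene set Zhewan 1 apart at both stages and 1 set Zhongwan 6 apart. The same rule found 410 unigenes for 10 DAP and 330 for 25 DAP. It found 2 unigenes for Zhewan 1 at 10 DAP with Zhongwan 6 at 25 DAP, and 3 for the other crossed pair. At an RPKM of at least 3 and a 4-fold gap, 4 and 3 unigenes followed the cultivar, while 43 and 16 followed the crossed pairs. Whether a library carries the label of another was not tested.

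Most unigenes were a little higher in Zhongwan 6 on the deposited RPKM scale. The median log2 ratio of the 31505 unigenes was 0.47, with quartiles of 0.02 and 0.89. A second scaling therefore set the median ratio of the 26397 unigenes that reached an RPKM of 1 on both sides to 1, which takes 0.40 off every log2 ratio. The TMM scaling of edgeR gave nearly the same shift (0.41). Totals taken without the 100 most abundant unigenes of either library gave 0.19, and equal sums of RPKM gave no shift beyond -0.003.

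Fisher's exact test (two-sided) compared each unigene's reads with the rest of the library, and a call was made at 2-fold or more and a false discovery rate up to 0.001, adjusted over all 71326 unigenes with a read in the pair. Among these 71326, 7389 (10.4%) were called higher in Zhongwan 6 and 2190 (3.07%) lower on deposited RPKM. Among the 31505 selected unigenes 6243 (19.8%) were higher and 1725 (5.48%) were lower, so that 78.4% of the calls were higher in Zhongwan 6. With median-ratio scaling 3153 (10.0%) were higher and 2931 (9.3%) were lower, and the share of higher calls became 51.8%. The excess of higher calls thus stood on the deposited scale and was nearly gone after median-ratio scaling.

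From here on "higher" and "lower" are used for unigenes called under both scalings, which were 3153 (10.0%) higher and 1725 (5.48%) lower in Zhongwan 6. This rule is not symmetric, because median-ratio scaling lowers every log2 ratio at 10 DAP. A higher unigene thus needed a larger gap on deposited RPKM than a lower one, and median-ratio scaling alone gave 2931 lower unigenes. A unigene that entered through 1 library alone had to differ in part. Among the 26828 unigenes with 50 reads in both libraries, 1783 (6.65%) were higher and 1201 (4.48%) lower. On deposited RPKM a 4-fold gap or more was shown by 1554 of the higher and 600 of the lower unigenes. On the same scale 226 and 113 showed a 16-fold gap or more. Median-ratio scaling takes 0.40 off each log2 ratio, and these counts were not repeated on it. In whole seeds, fewer cells of a type and less RNA per cell cannot be told apart.

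The 2 sets differed in level. Higher unigenes were mostly of low abundance, with a median RPKM of 4.33 in Zhongwan 6, and 53 reached an RPKM of 100. Lower unigenes had a median RPKM of 6.06 in Zhewan 1, and 174 reached 100. Among the 86 unigenes with a mean RPKM of 1000 or more, 2 were higher and 28 (32.6%) were lower, and the median log2 ratio was -0.42. These are sequences and not separate observations: the 28 include all 4 sequences of comp37913_c0, which share reads. The level ranges were not counted by component. From 3 to 10 RPKM, 7.55% of 11450 unigenes were higher and 3.45% lower, with a median of 0.45. Below a mean RPKM of 1 the median was 0.80. Of the higher unigenes 1370 reached 50 reads in Zhongwan 6 alone, and of the lower ones 524 reached it in Zhewan 1 alone. The read minimum therefore has a part in the low levels. The contrast in level was not repeated for the unigenes with 50 reads in both libraries. The share of counted reads made the same contrast. A read can be counted on more than 1 sequence, so these and the following shares are of counted reads and not of sequenced fragments. Lower unigenes held 28.3% of all counted Zhewan 1 reads and 8.97% of those of Zhongwan 6, while higher unigenes held 6.63% in Zhongwan 6 and 1.63% in Zhewan 1.

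**Figure D1:**
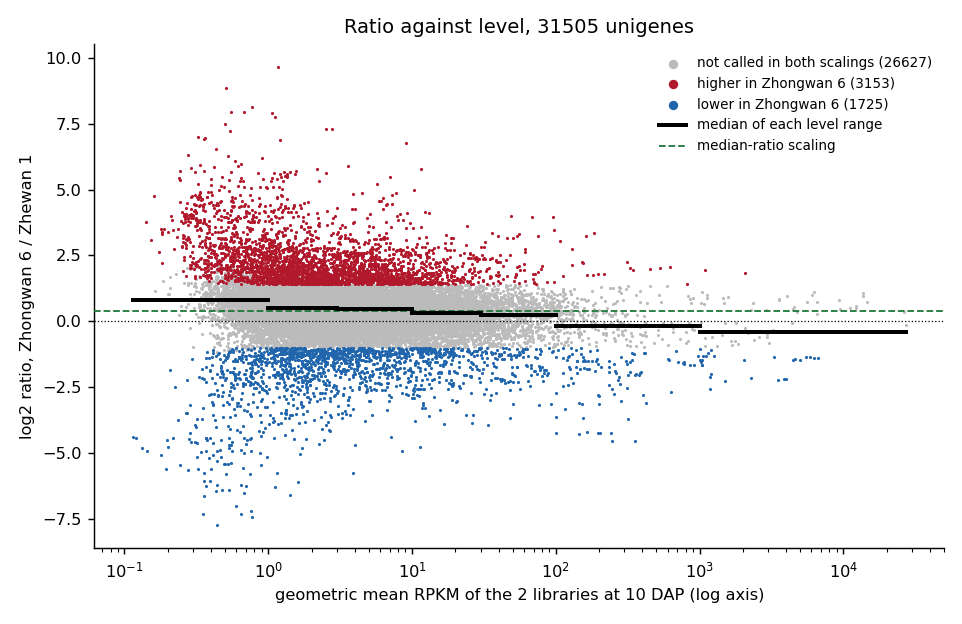
Log2 ratio of Zhongwan 6 to Zhewan 1 at 10 DAP (vertical axis) against the geometric mean RPKM of the 2 libraries (log axis), 1 point for each of the 31505 unigenes, with 3 or fewer reads set to 3. Red points are the 3153 higher and blue points the 1725 lower unigenes, black bars are the median of each level range, which goes from 0.80 at the lowest to -0.42 at the highest level, and the dashed green line is the median-ratio scaling at 0.40.

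A few components carried most of the reads that were more frequent in Zhewan 1. The 10 components with the most reads among the lower unigenes held 18.6% of the counted reads in Zhewan 1 and 6.32% in Zhongwan 6 at 10 DAP. These components were picked for their reads at 10 DAP, and none has a description in the annotation that could be read. All 4 sequences of comp37913_c0 were lower, with 3953194 reads in Zhewan 1 (7.89% of the counted reads) and 1842441 in Zhongwan 6 (3.03%). All 5 sequences of comp40974_c0 were lower too, with 1988451 reads (3.97%) and 529268 reads (0.87%). The 5 sequences of comp40225_c0 had 858163 and 330174 reads. Sequences of a component share reads, so each component stands for 1 observation at most. At 25 DAP, in libraries that did not enter this choice, the order was the other way: comp37913_c0 took 0.924% of the counted reads in Zhewan 1 and 6.06% in Zhongwan 6, and comp40974_c0 took 0.466% and 6.23%. Over all 1725 lower unigenes, the share at 25 DAP was 7.05% in Zhewan 1 and 27.2% in Zhongwan 6.

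On the other side the reads were spread over more components. The 10 components with the most reads among the higher unigenes held 1.65% of the counted reads in Zhongwan 6 and 0.417% in Zhewan 1 at 10 DAP. The largest was comp41077_c0, a single sequence of 2996 bp with 393462 reads in Zhongwan 6 and 83370 in Zhewan 1. Its RPKM was 2158 against 556, which gives a 3.88-fold gap (95% exact interval 3.86 to 3.91). All 4 sequences of comp37236_c1 were higher, with 157323 reads against 32239, and 10 of the 12 sequences of comp40839_c0 had 132969 reads against 22857. The short unigene comp20781_c0_seq1 (280 bp) had 66604 reads against 15527, and at 25 DAP it had 533 reads in Zhongwan 6 and 5754 in Zhewan 1. Among less abundant messages, the 2 sequences of comp26922_c0 had 58316 reads against 3088, while at 25 DAP they had 3928 in Zhongwan 6 and 4006 in Zhewan 1. The short unigenes comp21947_c0_seq1 and comp32910_c0_seq1 were among the most abundant higher unigenes in Zhongwan 6, at an RPKM of 589 against 57.8 and at 503 against 52.8. At 25 DAP both were far more abundant and lower in Zhongwan 6, at an RPKM of 1432 against 4478 and of 1107 against 5177. Like the components above, these unigenes were singled out after their values were seen, and none of them has a description.

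Below these sets, the most abundant messages of the young seed were shared. The 10 unigenes with the highest RPKM in each library made up 13 unigenes together, and 7 were among the 10 of both. The first in Zhewan 1 was comp40218_c0_seq4, with an RPKM of 28579 there and 25821 in Zhongwan 6, where it ranked 2. The first in Zhongwan 6 was comp40800_c2_seq2, with an RPKM of 30099 against 23307. Of the 13, the 2 members of comp37913_c0 were lower in Zhongwan 6, at an RPKM of 4068 against 10798 and of 3837 against 10012, and none was higher under both scalings. The nearest to it was comp39594_c2_seq4, with an RPKM of 19607 against 9418 and a log2 ratio of 1.06 that was 0.66 after median-ratio scaling. The other 10 had ratios from 0.757 to 1.95. None of the 13 has a description in the part of the annotation used.

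The widest gaps were looked for among unigenes reaching an RPKM of 10 on their higher side. The first was comp6705_c0_seq1 (1456 bp), for which 2958 reads were counted in Zhongwan 6 and 2 in Zhewan 1 (ratio of the reads as counted 1217, 95% exact interval 337 to 10060). With the 2 reads set to 3, as for all log2 ratios, its log2 ratio was 9.66. Next was comp24725_c0_seq1 (2532 bp) with 1690 reads and 0 reads. It was 464-fold higher when the Zhewan 1 reads were set to the floor of 3 (lower limit of the 95% exact interval 377). By the same floor comp26025_c0_seq1 (1320 bp), with 1041 reads and 0 reads, was 286-fold higher (lower limit 232). Another unigene without a Zhewan 1 read, comp38867_c0_seq23 with 901 reads, belongs to a component of 9 sequences. It was 247-fold higher by that floor (lower limit 201). These 4 unigenes were almost or fully restricted to the Zhongwan 6 library within the pair at 10 DAP. The most read of the 8 with the largest ratios was comp31698_c0_seq1 (3568 bp), with 7559 reads against 39, or 34.8 against 0.218 as RPKM, and its ratio was 160 (117 to 225). The other 3 were comp14693_c0_seq1 (1172 reads against 4), comp26421_c0_seq3 (1041 against 4) and comp42208_c0_seq1 (582 against 2).

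In the other direction comp14061_c0_seq1 (852 bp) had 432 reads in Zhewan 1 and 2 in Zhongwan 6, which is 263-fold lower in Zhongwan 6 by the reads as counted (95% exact interval 72.2 to 2174) and a log2 ratio of -7.45 with the 2 reads set to 3. The unigenes comp39466_c1_seq10 (239 reads) and comp39972_c0_seq14 (169 reads) had 0 reads in Zhongwan 6. By the floor of 3 reads they were 96.8-fold and 68.5-fold lower (lower limits of the 95% exact intervals 78.1 and 55.1). Both are short members of components with 10 and 7 sequences. The remaining 5 had reads on both sides: comp39921_c0_seq1 had 1863 reads in Zhewan 1 and 42 in Zhongwan 6, and comp41758_c0_seq1 had 1044 and 42. The most abundant of the 8 was comp18811_c0_seq1 (1679 bp), with 5033 and 221 reads and an RPKM of 59.8 against 2.16, a 27.7-fold gap (24.2 to 31.8). It was followed by comp24886_c0_seq3 with 2212 and 102 reads and by comp18936_c0_seq1 with 379 and 18 reads. No description is available for any of them.

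**Figure D2:**
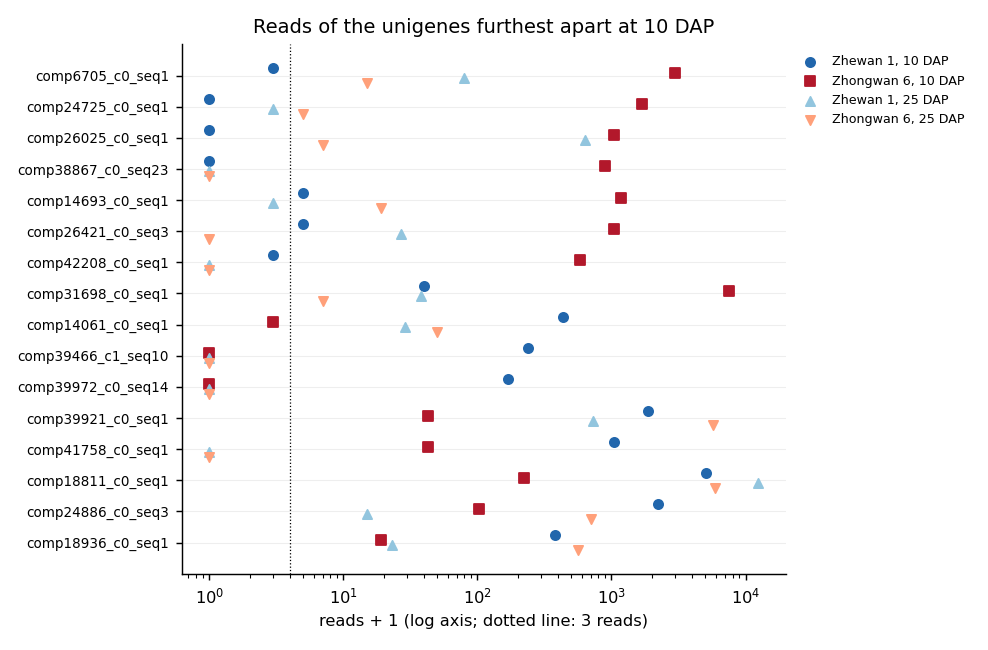
Reads plus 1 (log axis) in the 4 libraries for the 8 unigenes with the largest and the 8 with the smallest ratio at 10 DAP, with the dotted line at 3 reads. The 10 DAP libraries (dark symbols) lie far apart by choice, while at 25 DAP (pale symbols) comp26025_c0_seq1 has 630 reads in Zhewan 1 and 6 in Zhongwan 6 and comp39921_c0_seq1 has 723 and 5735.

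Most of these 16 unigenes did not keep their side at 25 DAP. Of the 8 higher unigenes 4 were lower in Zhongwan 6 at 25 DAP, none was called higher, and comp38867_c0_seq23 and comp42208_c0_seq1 had no read in either library. For comp26025_c0_seq1 the reads at 25 DAP were 630 in Zhewan 1 and 6 in Zhongwan 6. Of the 8 lower unigenes 3 were higher in Zhongwan 6 at 25 DAP. Of the 16, comp18811_c0_seq1 alone was called the same way at both stages, with 12412 reads in Zhewan 1 and 5876 in Zhongwan 6 at 25 DAP. For comp39466_c1_seq10, comp39972_c0_seq14 and comp41758_c0_seq1 no read was counted at 25 DAP in either cultivar.

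In all, 132 unigenes with 50 or more reads in Zhongwan 6 had 3 or fewer reads in Zhewan 1, and 64 were one-sided in the other direction. They belong to the 3991 and the 686 unigenes that reached 50 reads in Zhongwan 6 only and in Zhewan 1 only. The rule uses reads without scaling, and the Zhongwan 6 library had more counted reads, so the 2 counts do not compare the cultivars. The reads on the present side ranged from 50 to 2958, with a median of 78, for Zhongwan 6, and from 52 to 531, with a median of 87.5, for Zhewan 1. No read at all was counted on the other side for 63 and 50 of them. The only sequence of a component made up 108 of the 132 and 29 of the 64. At 25 DAP 65 of the 132 and 32 of the 64 were at 3 or fewer reads in both cultivars. The one-sided pattern was kept at 25 DAP by 1 unigene on each side. These were comp10926_c0_seq1, with 55 reads in Zhongwan 6 and 3 in Zhewan 1 at 10 DAP and 105 and 0 at 25 DAP, and comp31090_c0_seq2, with 57 reads in Zhewan 1 and 0 in Zhongwan 6 at 10 DAP and 93 and 0 at 25 DAP. The sides were exchanged for 5 unigenes. An example is comp15226_c0_seq1, which had 650 reads in Zhongwan 6 and 2 in Zhewan 1 at 10 DAP, and 0 and 50 at 25 DAP.

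Next, the whole sets were followed to 25 DAP, whose 2 libraries took no part in the selection at 10 DAP. At 25 DAP 2399 (7.61%) of the 31505 unigenes were higher and 2519 (8.0%) lower in Zhongwan 6 under both scalings. The median-ratio shift at 25 DAP was -0.36, so there the lower call was the stricter one, unlike at 10 DAP. Of the 1725 unigenes lower at 10 DAP, 591 (34.3%) were higher at 25 DAP and 192 (11.1%) were lower again. Of the 3153 higher at 10 DAP, 506 (16.05%) were lower at 25 DAP and 131 (4.16%) were higher again. A change of side was thus seen in 34.3% of the lower set against a background of 7.61%, and in 16.05% of the higher set against a background of 8.0%. With calls on deposited RPKM alone at both stages, a setting chosen after seeing the data, the latter share was 24.6% against a background of 15.8%. The median log2 ratio at 25 DAP was 0.31 for the lower set and -0.58 for the higher set, against -0.35 over all selected unigenes. By RPKM, the library with the highest level among the 4 was Zhongwan 6 at 10 DAP for 2474 of the higher set, and it was Zhewan 1 at 25 DAP for 620. For the lower set it was Zhewan 1 at 10 DAP in 1065 cases, Zhewan 1 at 25 DAP in 336 and Zhongwan 6 at 25 DAP in 324. No test was made of the difference between stages.

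**Figure D3:**
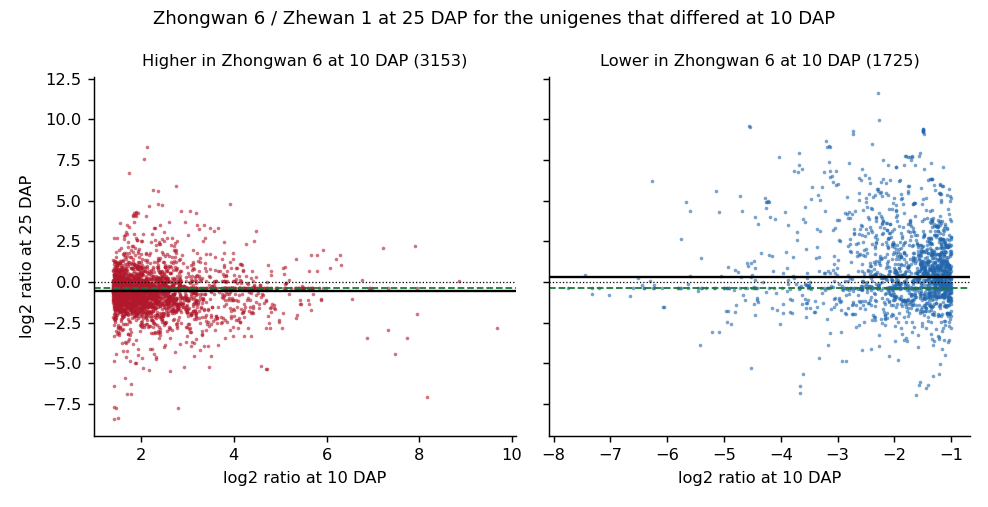
Log2 ratio of Zhongwan 6 to Zhewan 1 at 25 DAP (vertical axis) against the same ratio at 10 DAP for the 3153 higher (left, red) and the 1725 lower unigenes (right, blue), with 3 or fewer reads set to 3. Black lines are the medians at 25 DAP, -0.58 on the left and 0.31 on the right, and the dashed green line is the median-ratio shift at 25 DAP of -0.36.

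A set of pathway unigenes was taken with names from earlier results of these data and not from the annotation. Of the 4 starch unigenes among them 1 was called under both scalings. Granule-bound starch synthase 1, which builds amylose, was represented by comp40911_c0_seq4 (699 bp) with 9819 reads in Zhewan 1 and 2213 in Zhongwan 6, or 280 against 52.0 as RPKM. It was 5.39-fold lower in Zhongwan 6 (95% exact interval 5.15 to 5.65), with a log2 ratio of -2.43 on deposited RPKM and -2.83 after median-ratio scaling. The longer sequences of its component gave the same picture, at an RPKM of 294 against 58.6 for comp40911_c0_seq2 and 179 against 37.3 for comp40911_c0_seq5. The remaining sequence, comp40911_c0_seq11, had 119 and 187 reads and a log2 ratio of 0.37. Summed over the component, 68646 reads in Zhewan 1 stood against 16889 in Zhongwan 6, a log2 ratio of -2.30. At 25 DAP the order was reversed and the gap was under 2-fold, at 2165 RPKM in Zhongwan 6 and 1533 RPKM in Zhewan 1.

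The other starch unigenes differed less. ADP-glucose pyrophosphorylase, which makes the ADP-glucose substrate, had 698 reads in Zhewan 1 and 496 in Zhongwan 6 for comp40170_c0_seq1, a log2 ratio of -0.77. It passed the thresholds only after median-ratio scaling (-1.17), and its sister sequence comp40170_c0_seq2 was at -0.02 with 291 and 350 reads. The large subunit 2 of glucose-1-phosphate adenylyltransferase, another name of the same enzyme, had 212 and 301 reads for comp40857_c0_seq14, with a ratio of 1.17 whose interval (0.977 to 1.40) includes 1. It holds 4.27% and 4.03% of the reads of a component of 10 sequences, of which comp40857_c0_seq9 was higher (234 reads in Zhongwan 6 against 72) and comp40857_c0_seq6 lower (298 against 522). The component sum had a log2 ratio of 0.31. Starch branching enzyme II, which introduces the branch points of amylopectin, was at 26.9 RPKM in Zhewan 1 and 18.6 RPKM in Zhongwan 6 (comp39207_c0_seq1). This is 1.45-fold lower (1.39 to 1.52), short of 2-fold under both scalings. The 5 unigenes of sugar metabolism, among them sucrose synthase and fructose-bisphosphate aldolase, had log2 ratios between -0.23 and 0.73 and none was called.

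Argininosuccinate synthase, the enzyme before the last step of arginine synthesis, was the pathway unigene with the largest excess in Zhongwan 6. The sequence comp30932_c0_seq2 had 803 reads in Zhongwan 6 and 153 in Zhewan 1, which is 8.23 against 1.90 as RPKM and 4.32-fold higher (3.63 to 5.17). The shorter sequence of the component, comp30932_c0_seq1, had 525 and 263 reads, and the component sum had a log2 ratio of 1.39. After median-ratio scaling the sum was at 0.996, just short of 2-fold. The 2 glutamate synthase unigenes, which assimilate ammonium nitrogen, had log2 ratios of 0.02 and -0.04. FUS3, the maturation regulator, had 1991 reads in Zhongwan 6 and 783 in Zhewan 1 for comp26137_c0_seq1, an RPKM of 19.8 against 9.47. Its ratio of 2.09 (1.93 to 2.28) passed the threshold on deposited RPKM and not after median-ratio scaling, where its log2 ratio was 0.67.

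A chlorophyll a/b binding protein of the light harvesting complex, comp40423_c1_seq2, had 55 reads in Zhongwan 6 and 15 in Zhewan 1, a log2 ratio of 1.59. Its component holds 5 sequences that did not move together. The sequence comp40423_c1_seq4 was lower in Zhongwan 6, with 430 reads against 1403, while comp40423_c1_seq6 had 1722 against 944 and comp40423_c1_seq7 had 1567 against 858. The component sum had a log2 ratio of -0.04. The ADP-ribosylation factor comp37255_c0_seq46, a small GTPase of vesicle traffic, had 1206 and 1209 reads and a log2 ratio of -0.29. The small heat shock protein comp12242_c0_seq1 had 8 and 3 reads and fell below the read minimum, so that 15 of the 16 pathway unigenes were in the comparison. None of the 16 passed edgeR's likelihood ratio test when a between-library coefficient of variation of 0.4 was assumed.

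**Figure D4:**
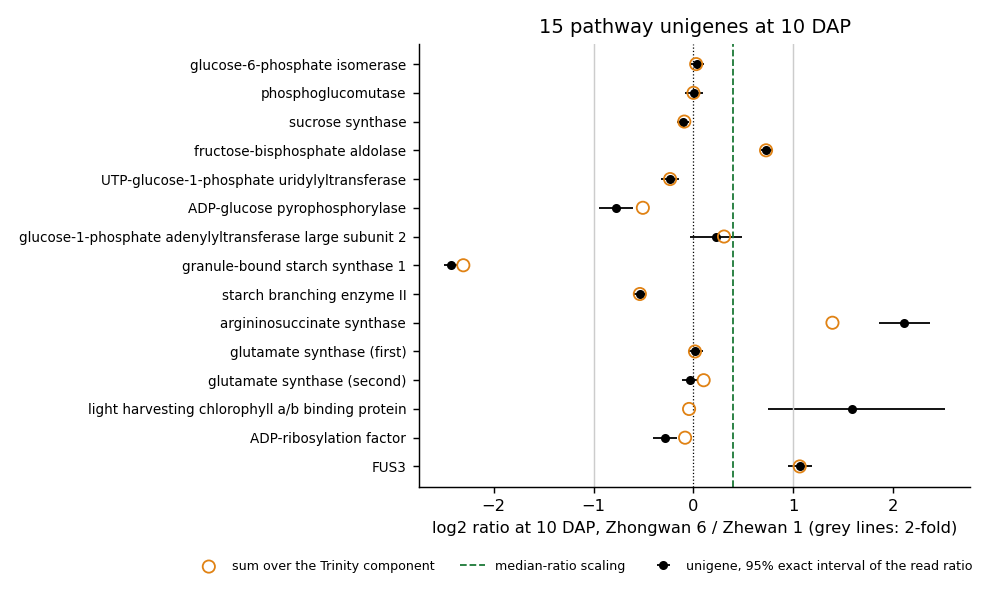
Log2 ratio of Zhongwan 6 to Zhewan 1 at 10 DAP for the 15 pathway unigenes (black points, bars are 95% exact intervals of the read ratio, counting error only) and for the sum of the sequences in each component (orange circles). Grey lines mark 2-fold and the dashed green line the median-ratio scaling at 0.40, and granule-bound starch synthase 1 lies at -2.43, argininosuccinate synthase at 2.11 and FUS3 at 1.07.

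Annotation rows from the alignment to Medicago truncatula could be read for a small, unrepresentative part of the table, which covers 464 (1.47%) of the selected unigenes. A description text is given for 405 of them. Of the 464, 75 were higher, 35 lower and 354 not called. Both called shares are above those over all selected unigenes, which are 10.0% higher and 5.48% lower. The median log2 ratio of the 464 was 0.41, against 0.47 over all selected unigenes. Where the higher side reached an RPKM of 3, the largest ratio of a described unigene was that of comp12701_c0_seq1, an Integrase-type DNA-binding protein, a description that Arabidopsis annotation gives to AP2/ERF transcription factors. It had 2303 reads in Zhongwan 6 and 109 in Zhewan 1 (RPKM 38.5 against 2.21) and was 17.4-fold higher (95% exact interval 14.3 to 21.3). Of the 24 annotated unigenes named for their ratio here and below, 1 passed edgeR's likelihood ratio test at an assumed coefficient of variation of 0.4. That unigene was comp10232_c0_seq1, which has no description text. A calcium-binding EF-hand protein, comp11276_c0_seq1, had 446 reads against 22 and a ratio of 16.7 (10.9 to 26.9). An AUX/IAA protein, of the family that represses auxin response genes, had 209 reads against 14 (comp10484_c0_seq2) and a ratio of 12.3 (7.16 to 22.9). At 25 DAP the AUX/IAA and EF-hand unigenes had at most 7 reads in either library.

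Further described unigenes were about 5-fold higher in Zhongwan 6. They were the RING/U-box protein comp13138_c0_seq1, of a domain found in ubiquitin ligases (250 reads against 39), the DUF506 protein comp13428_c0_seq1 (2382 against 384) and the winged-helix transcription factor comp13186_c0_seq1 (938 against 152). The heavy metal transport/detoxification protein comp13385_c0_seq1 had 166 reads against 27. A thioredoxin family protein, comp12150_c0_seq1, was the most abundant of the 12 at an RPKM of 84.3 against 17.4, and at 25 DAP its RPKM was 1035 in Zhewan 1 and 178 in Zhongwan 6. The remaining 4 of the 12 have no description text, and comp10232_c0_seq1 among them had the widest gap, 1654 reads against 43 and a ratio of 31.7 (23.4 to 43.9).

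Among the lower described unigenes, the reticulon-like protein comp13530_c0_seq2, of a family that shapes the endoplasmic reticulum, was the most abundant. It had 24958 reads in Zhewan 1 and 2378 in Zhongwan 6, an RPKM of 551 against 43.2 and a 12.8-fold gap (95% exact interval 12.2 to 13.3). At 25 DAP the same unigene had 87 reads in Zhewan 1 and 16101 in Zhongwan 6. The RING/U-box protein comp13018_c0_seq1 was lower by 14.4-fold (9.47 to 22.8), with 284 and 24 reads. The 4-coumarate:CoA ligase 2 comp12472_c0_seq1, of the phenylpropanoid route, had 291 reads in Zhewan 1 and 30 in Zhongwan 6. Flavanone 3-hydroxylase comp12893_c0_seq1, of the flavonoid route, had 226 and 49, while a chalcone-flavanone isomerase family protein of the same route was higher (comp13136_c0_seq1, 559 reads in Zhongwan 6 against 168). A UDP-glycosyltransferase, comp13091_c0_seq1, had 1393 and 383 reads, and an NAD(P)-binding Rossmann-fold protein, comp13041_c0_seq1, had 4313 and 1040.

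Tryptophan aminotransferase related 2, whose Arabidopsis homologue makes an auxin precursor, had 303 reads in Zhewan 1 and 58 in Zhongwan 6 for comp11388_c0_seq1, a 6.35-fold gap (4.78 to 8.56). At 25 DAP it had 977 reads in Zhewan 1 and 4392 in Zhongwan 6. The oil body protein caleosin (comp13486_c0_seq1) had an RPKM of 35.7 against 9.24, and minichromosome maintenance 10, a factor for the start of DNA replication, had 206 and 70 reads (comp13078_c0_seq1). The remaining ones were a copper chaperone (comp12366_c0_seq1, 79 and 18 reads), a myosin heavy chain-related protein (comp12820_c0_seq1, 306 and 98) and a CBS domain protein (comp13073_c0_seq2, 1994 and 652).

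**Figure D5:**
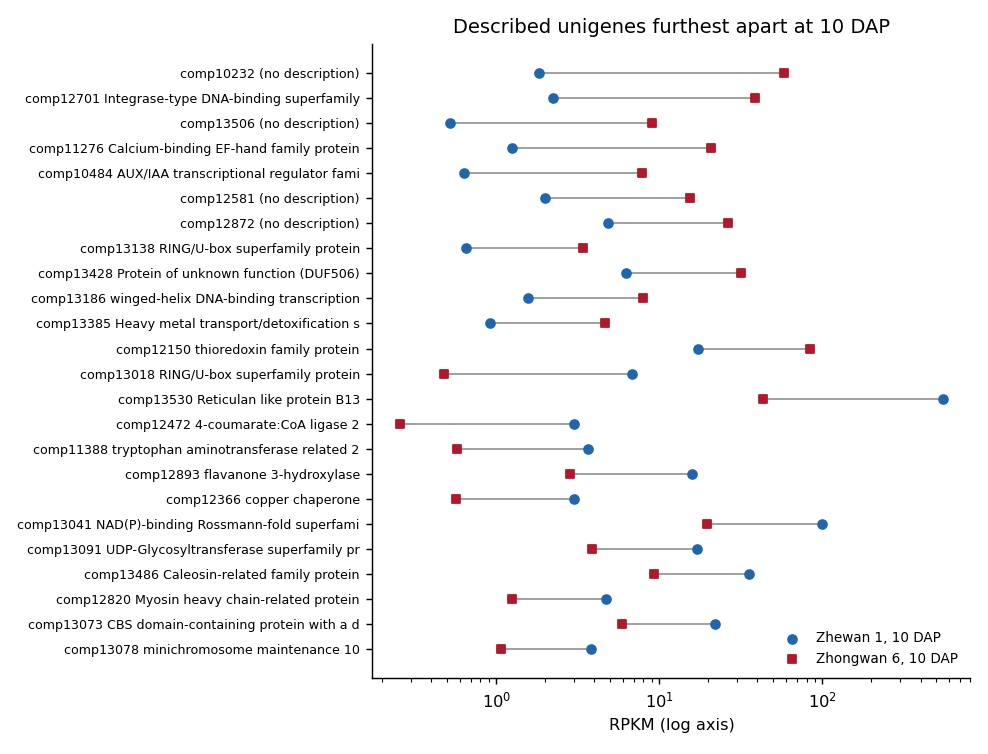
RPKM (log axis) in Zhewan 1 (blue circles) and Zhongwan 6 (red squares) at 10 DAP for the 12 annotated unigenes with the largest and the 12 with the smallest ratio, each pair joined by a line. The widest gap is that of comp10232_c0_seq1 at 58.2 against 1.84, and the highest level is that of comp13530_c0_seq2 at 551 in Zhewan 1 against 43.2 in Zhongwan 6.

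The lists built from the descriptions are short, and they are given as counts beside the background of 10.0% higher and 5.48% lower. All were drawn from the 464 annotated unigenes, of which 75 were higher and 35 lower. Both of these shares are above that background, so it is a low standard for the lists. Transcription factors were the largest list with 28 unigenes, of which 7 were higher, 2 lower and 19 not called, and the median log2 ratio was 0.35. Besides the AP2/ERF-type, AUX/IAA and winged-helix unigenes above, the higher ones were an AP2.7-related factor (comp11367_c0_seq1, 90 reads against 11), MYB domain protein 48 (comp13240_c0_seq1, 224 against 39), WRKY protein 70 (comp12496_c0_seq2, 271 against 58) and nuclear factor Y subunit A10 (comp11097_c0_seq1, 117 against 30). The lower ones were a homeodomain-like protein (comp12100_c0_seq2, 21 reads against 64) and a basic helix-loop-helix protein (comp12270_c0_seq1, 64 against 106). All of these but the AP2/ERF-type unigene were below an RPKM of 8 in both libraries.

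Of 13 protein kinases 3 were higher and 1 lower. The higher ones were receptor-like protein kinase 1 (comp12012_c0_seq1, 105 reads against 11), a concanavalin A-like lectin kinase (comp12253_c0_seq1, 419 against 69) and an S-locus lectin kinase (comp11898_c0_seq1, 114 against 33). Of 6 heat shock proteins and chaperones 2 were higher. An htpG-type chaperone, of the Hsp90 family, had 5959 reads in Zhongwan 6 and 1285 in Zhewan 1 (comp12506_c0_seq1), and GrpE, the nucleotide exchange factor of Hsp70, had 871 and 269 (comp13383_c0_seq1). The list of 5 pentatricopeptide repeat proteins, which process organelle RNA, had 1 higher member (comp11232_c0_seq1, 71 reads against 14). In each of 3 further lists 1 unigene was higher, always with few reads. These were jasmonate-zim-domain protein 8, a repressor of jasmonate response (comp11677_c0_seq1, 50 reads against 3), sugar transporter 14 (comp12979_c0_seq3, 107 against 10) and a cellulose synthase family protein (comp12505_c0_seq2, 50 against 6).

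The list of seed storage and maturation proteins holds unigenes of mixed roles, among them 3 described as late embryogenesis abundant hydroxyproline-rich glycoproteins. Of its 8 unigenes 3 were lower, 1 was higher and 4 were not called, and the median log2 ratio was -0.64, or -1.04 after median-ratio scaling. Their summed RPKM was 297 in Zhewan 1 and 179 in Zhongwan 6. The lower ones were a Kunitz protease inhibitor (comp12822_c0_seq1, 4 reads in Zhongwan 6 against 54 in Zhewan 1), caleosin and a late embryogenesis abundant protein (comp12737_c0_seq1, 2249 against 4658). A different late embryogenesis abundant protein was higher (comp12804_c0_seq1, 103 against 25). The unknown seed protein like 1, comp12618_c0_seq1, had an RPKM of 98.2 against 168, whereas an oleosin (comp11102_c0_seq1) had 22.7 against 14.2 and an RmlC-like cupin (comp13522_c0_seq1) had 19.8 against 10.8. None of these 3 was called. At 25 DAP the Kunitz inhibitor had 777 reads in Zhongwan 6 and 0 in Zhewan 1, the lower late embryogenesis abundant protein had 9143 and 1979, and caleosin had 869 and 677.

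Lists set up for green, pigment-making and dividing tissue were small. Of 3 photosystem and light harvesting unigenes, which mark green tissue, none was called, and their summed RPKM was 32.1 in Zhewan 1 and 25.9 in Zhongwan 6. The light harvesting complex gene 2.1 of photosystem II, comp13040_c0_seq1, had 1157 reads in Zhewan 1 and 786 in Zhongwan 6, while the reaction center protein A of photosystem II (comp12834_c0_seq1) had 94 and 291. The list of flavonoid enzymes and laccases held 2 members, flavanone 3-hydroxylase and the chalcone-flavanone isomerase family protein, of which 1 was lower and 1 higher. For dividing tissue, 3 histones had log2 ratios of 0.00 to 0.21 and none was called. The 2 cell division unigenes went apart, cyclin D3;1 (comp12259_c0_seq1) with 153 reads in Zhongwan 6 and 250 in Zhewan 1 and a cyclin family protein (comp13445_c0_seq1) with 359 and 127, and neither was called under both scalings. Outside these lists, the DNA replication factor minichromosome maintenance 10 (comp13078_c0_seq1) was lower, as given above. The part of tissue makeup in the differences above was not tested.

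None of 14 ribosomal protein unigenes was called under both scalings, and their log2 ratios ran from -0.45 to 1.21 with a median of 0.69, which was 0.30 after median-ratio scaling. Ribosomal protein S27 (comp13092_c0_seq1), the highest of them, had 5451 reads in Zhongwan 6 and 1941 in Zhewan 1, and 2-fold was passed on deposited RPKM only. The single members of 3 lists were not called under both scalings either. These were lipoxygenase 1 (log2 ratio -0.05), a TIR-NBS-LRR disease resistance protein (1.38) and a cytochrome P450 of family 82 (-0.76).

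Sequences of a single component could differ in opposite directions. Of 670 components with 2 or more called unigenes, 24 held both a higher and a lower sequence, and in 17 of these the reads summed over the component differed by less than 2-fold. In comp37112_c1, singled out like the next examples after its values were seen, which holds 2 sequences of similar length, comp37112_c1_seq1 had 3283 reads in Zhongwan 6 and 419 in Zhewan 1, whereas comp37112_c1_seq3 had 925 and 1935, and the component sum had a log2 ratio of 0.56. In comp34356_c0 the sequence comp34356_c0_seq7 had 1421 reads against 317 and comp34356_c0_seq6 had 248 against 1229, while the component sum was at -0.17. In comp38260_c1 the pair had 592 against 41 reads and 660 against 1300 reads, with a sum at -0.38. In 21 of the 24 both sequences had more than 3 reads in a 25 DAP library. Of these 21, 0 kept both directions at 25 DAP and 8 had both signs reversed, at any size of ratio and with no test. Among called unigenes in components of 2 or more sequences, the component sum also differed 2-fold the same way under both scalings for 1121 of 1539 higher unigenes (72.8%) and for 665 of 873 lower unigenes (76.2%).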

How the data were processed

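The authors used Trinity for the assembly of the 4 libraries and Bowtie 0.12.8 to map their reads back to the unigenes, and deposited a read count for each unigene. From these counts the authors computed RPKM with the unigene length and the counted total of the library, and deposited it beside the counts. A read can be counted on more than 1 sequence. No normalization beyond RPKM was applied. The unigenes, lists and pathway names were chosen with earlier results of these data known.

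Counts were used for Fisher's exact test (Benjamini-Hochberg, false discovery rate 0.001, 2-fold) and for exact Clopper-Pearson intervals at 95%. Above 20000 reads in the pair, the continuity-corrected normal form of the test was used. The test compares 2 libraries and is not a replicate test. Values of 3 or fewer reads were set to a floor of 3 reads (for a unigene of 1 kb, 0.0599 RPKM in Zhewan 1 and 0.0493 RPKM in Zhongwan 6). Calls had to hold on deposited RPKM and after median-ratio scaling. Unigenes were named by these rules: the 16 pathway unigenes; the 8 largest and 8 smallest ratios at an RPKM of 10 or more; the 10 most abundant of each library; the 12 largest and 12 smallest ratios of annotated unigenes at an RPKM of 3 or more; and up to 3 called members of each of the 16 lists. Other members of short lists were named after their values were seen. Descriptions came from 1998 readable annotation rows, of which 1121 name a unigene of the table. The names of the pathway unigenes did not come from these rows. Of the unigene identifiers, 0 match the RefSeq gene table, so no sequence or position is given. The settings tried were other scalings, read minimums, a 4-fold threshold, a pseudocount of 1, component sums, a chi-square test and, for a between-library coefficient of variation set to 0.4, a likelihood ratio test in edgeR. The call was tested on simulated counts that held counting error only. They had no variation between libraries, so this test does not bear on biological spread.

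Analyses ran in Python 3.11.15 (SciPy 1.17.1, NumPy 2.4.6, pandas 2.3.3) and in R 4.3.3 with edgeR 4.0.16, and figures were drawn with matplotlib 3.10.9.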

Additional observations from a re-analysis of the deposited data

Results flagged for a closer look

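Of the 82 unigenes named by rule, 57 were called under both scalings at 10 DAP. At 25 DAP 19 of these 57 were called in the other direction, 5 in the same direction and 33 were not called. Over all selected unigenes, 16.05% of those higher and 34.3% of those lower at 10 DAP were called the other way at 25 DAP. With 1 library for each cultivar and stage, the difference between the stages was not tested, and unigenes of 1 component are not separate observations.

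Of those higher in Zhongwan 6 at 10 DAP, the log2 ratio at 25 DAP was -7.06 for comp26025_c0_seq1 (8.16 at 10 DAP), -3.46 for comp26421_c0_seq3 (7.74), -2.97 for comp31698_c0_seq1 (7.32) and -2.84 for comp6705_c0_seq1 (9.66). Among described unigenes it was -2.54 for the thioredoxin comp12150_c0_seq1 (2.28) and -1.58 for the htpG-type chaperone comp12506_c0_seq1 (1.93). For the pathway unigene argininosuccinate synthase, comp30932_c0_seq2, which has no description in the annotation, it was -2.10 (2.11).

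Of those lower in Zhongwan 6 at 10 DAP, the log2 ratio at 25 DAP was 5.30 for comp24886_c0_seq3 (-4.72 at 10 DAP), 4.34 for comp18936_c0_seq1 (-4.68) and 2.64 for comp39921_c0_seq1 (-5.75). The 2 sequences of comp37913_c0 among the most abundant unigenes, comp37913_c0_seq4 and comp37913_c0_seq10, were at 2.72 and 2.71 (-1.41 and -1.38). Of the described unigenes, the Kunitz inhibitor comp12822_c0_seq1 was at 7.67 (-4.04), with 777 reads in Zhongwan 6 and 0 in Zhewan 1 at 25 DAP, so that the value rests on the floor of 3 reads. The reticulon-like protein comp13530_c0_seq2 was at 7.19 (-3.67). The UDP-glycosyltransferase comp13091_c0_seq1 was at 5.48 (-2.14), the copper chaperone comp12366_c0_seq1 at 4.53 (-2.42) and the Rossmann-fold protein comp13041_c0_seq1 at 3.94 (-2.33). The CBS domain protein comp13073_c0_seq2 was at 2.06 (-1.89) and tryptophan aminotransferase related 2, comp11388_c0_seq1, at 1.82 (-2.67).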

How the results depend on the processing

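On deposited RPKM 6243 unigenes were higher and 1725 lower in Zhongwan 6 at 10 DAP. The count of higher unigenes was 3153 with median-ratio scaling, 3122 with TMM, 4089 at 200 reads or more, 1564 at 4-fold, 3107 with RPKM + 1 and 4014 for components in place of unigenes. The count of lower unigenes was 2931, 2967, 1083, 600, 1129 and 1148 under the same settings. A between-library coefficient of variation set to 0.4 left 131 higher and 75 lower, the fewest of these settings. Equal sums of RPKM, totals without the most abundant unigenes, no read minimum and a chi-square test kept both counts within 1.5 times. Higher calls made up 51.3% to 79.1% of all calls over these settings. Settings for the next results were chosen after seeing the data. On deposited RPKM alone, 24.6% in place of 16.05% of the unigenes higher at 10 DAP were lower at 25 DAP. The share of unigenes lower at 10 DAP that were higher at 25 DAP stayed near 34.3%. At 200 reads or more, 19 in place of 132 unigenes were one-sided for Zhongwan 6 and 10 in place of 64 for Zhewan 1. The light harvesting unigene comp40423_c1_seq2 had a log2 ratio of 1.59 alone and of -0.043 as a component sum. Median-ratio scaling changed the sign of 4 of 16 pathway unigenes and of 4 of 16 list medians. By the rule of the call, a unigene called under both scalings cannot change sign between them. Leaving out a replicate was not possible with 1 library a side. No paired analysis was possible because each group holds 1 library. Unigenes near 50 reads are measured coarsely, and no setting replaces biological replicates.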
